A study of Mus musculus with 7 samples.

Results

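The C/EBP family was followed in mouse endometrial epithelium of mutants with a Cre-driven deletion of Brg1. The genes were chosen by name, 5 of the 53379 genes in the count tables: Cebpa, Cebpb, Cebpd, Cebpg and Cebpz. The family was taken up because Cebpb is about 7-fold lower in the mutants. The mutant-to-control differences of the members are therefore given as a description, with no test. All 5 passed the filter on low counts and were among the 14610 genes fitted.

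RNA was sequenced from EPCAM-positive epithelial cells sorted magnetically from dissociated uteri of CD-1 mice. The 4 mutant libraries came from 4 single mice, each 120 days old, with the genotype LtfCre 0/+; Brg1 fl/fl. In these mice Cre recombinase is driven by Ltf (lactoferrin), and both copies of Brg1 (Smarca4, the motor subunit of SWI/SNF, which moves nucleosomes using ATP) are floxed. The 3 control libraries were made from pooled wild-type CD-1 mice whose age was not found in the labels. They were reused from an earlier series and, as labelled, carry neither Cre nor a floxed allele. Genotype, Cre, pooling, library set and any difference in age therefore cannot be told apart in any comparison below. Sequencing depth, given below, also split fully by group. As these are sorted cells in bulk, fewer cells of a type and less RNA per cell cannot be told apart either.

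C/EBP proteins are basic leucine zipper (bZIP) transcription factors that bind DNA as dimers with each other or with other bZIP proteins. C/EBP-alpha is known for differentiation of liver, fat and granulocytes, C/EBP-beta and C/EBP-delta for acute-phase and inflammatory gene expression, and C/EBP-gamma as a partner that lacks a strong activation domain of its own. Cebpz bears the family name because its protein acts at the CCAAT box, but it is not a bZIP protein. In the mouse uterus Cebpb is induced by oestrogen and is required for the stroma to decidualise. One long form of C/EBP-beta has been shown to recruit SWI/SNF in blood cells.

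The libraries held 12436971 to 13364080 gene reads in mutants and 21372036 to 25862245 in controls. Levels are given below as counts per 1000000 gene reads (CPM) after scaling by the trimmed mean of M-values (TMM), and 3 reads correspond to between 0.183 and 0.235 CPM in mutants and between 0.136 and 0.159 CPM in controls. Smarca4 stood at 33.4%, 21.6%, 33.1% and 40.1% of the control mean in mutant replicates 1 to 4. All 6 epithelial markers were read in every library, and Epcam averaged 688 CPM in mutants and 894 CPM in controls. Mutant replicate 1 stood apart from mutant replicates 2 and 3, with correlations of 0.831 and 0.841 across genes. These compare with 0.968 between replicates 2 and 3 and 0.980 to 0.986 among controls. Mutant replicate 1 correlated at 0.900 with mutant replicate 4 and at 0.892, 0.907 and 0.878 with control replicates 1, 2 and 3. It was thus closer to every control than to mutant replicates 2 and 3, so the libraries did not group fully by genotype. Of all tested genes, 1687 were called at a Benjamini-Hochberg adjusted p under 0.05 by edgeR's quasi-likelihood test. The count was 4403 when mutant replicate 1 was left out, 1009, 629 or 940 without replicate 2, 3 or 4 of the mutants, and 133, 169 or 137 without control replicate 1, 2 or 3. Of the 29 called genes named below beside the members and Rhpn2, 3 were called in every fit without 1 library: Eif4ebp1, Trib3 and Fabp4. With total read scaling 13 of the 29 were not called: Atf5, Ccl3, Cdh1, Crebbp, Fosl1, Il6ra, Junb, Krt8, Osmr, Spata2, Star, Tmem189 and Tnf.

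Cebpb (ENSMUSG00000056501.3) is a gene with a single exon of 1504 bases on the plus strand of chromosome 2, chr2:167688915-167690418 in GRCm38. Its transcript yields longer activating and shorter inhibitory proteins from different start codons, which gene counts do not separate. The 250 bases before the annotated start are shown for the 3 members with an entry in RefSeq's table (GRCm38.p6), Cebpb beside Cebpa and Cebpg. Capitals mark TGACG, the core of the cyclic AMP response element (CRE) bound by CREB and ATF proteins, as well as TATAAA and CCAAT, each on either strand.
Cebpb promoter, chr2:167688665-167688914 (plus strand): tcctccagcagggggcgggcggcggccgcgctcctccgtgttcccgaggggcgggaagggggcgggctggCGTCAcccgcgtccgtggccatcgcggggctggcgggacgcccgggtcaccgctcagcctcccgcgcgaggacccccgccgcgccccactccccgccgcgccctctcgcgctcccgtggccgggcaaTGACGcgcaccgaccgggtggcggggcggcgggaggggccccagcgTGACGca
Cebpa promoter, chr7:35119043-35119292 (plus strand): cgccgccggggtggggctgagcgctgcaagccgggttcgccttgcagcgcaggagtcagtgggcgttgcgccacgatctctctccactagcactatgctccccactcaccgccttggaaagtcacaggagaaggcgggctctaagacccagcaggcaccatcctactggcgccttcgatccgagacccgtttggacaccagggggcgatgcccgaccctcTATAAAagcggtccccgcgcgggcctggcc
Cebpg promoter, chr7:35056567-35056816 (minus strand): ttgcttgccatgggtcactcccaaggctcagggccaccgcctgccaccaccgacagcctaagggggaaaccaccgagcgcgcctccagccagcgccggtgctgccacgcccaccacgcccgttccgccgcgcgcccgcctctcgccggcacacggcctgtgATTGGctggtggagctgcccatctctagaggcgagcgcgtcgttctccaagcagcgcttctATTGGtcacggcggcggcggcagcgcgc

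The Cebpb window is 81.6% G and C, more than in 99.3% of 32851 mouse promoter windows of the same length. It holds TGACG at 3 places, starting at −180, −53 and −7 from the annotated start, and TGACG is found in 17.8% of all windows. It also holds the GC box GGGCGG at 5 places, the first 2 of which overlap, a motif found in 32.7% of windows. TATAAA starts 22 bases into the annotated Cebpb transcript, so it lies outside the window. The Cebpa window holds TATAAA at −30 (12.4% of windows) and no TGACG, and the Cebpg window holds CCAAT at −89 and −28 (33.8% of windows) and no TGACG. None of the 3 windows holds the palindromic oestrogen response element (found in 0.0639% of windows), the palindromic C/EBP motif TTGCGCAA (0.164% of windows), the loose C/EBP motif TTNNGNAA (36.8%), the composite C/EBP-ATF motif TGATGCAA (0.791%), the STAT motif TTCNNNGAA (7.02%), the AP-1 motif TGANTCA (6.75%) or the full CRE TGACGTCA (1.55%). Both strands were searched, and TGACG is contained in the full CRE. A match is a run of letters and shows no binding.

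Cebpb had 39.3, 54.8, 40.7 and 50.3 CPM across mutant replicates 1 to 4 and 364, 248 and 361 CPM across control replicates 1 to 3. All mutants lay far below all controls, with a wide gap between the groups. The mean was 46.3 ± 7.47 CPM in mutants and 324 ± 66.0 CPM in controls (SD, n = 4 and 3). The fitted level was 7.01-fold lower in mutants (log2 fold change −2.81 ± 0.22 SE). These values rest on 503 to 825 reads per mutant library and 4692 to 7936 per control library. Each mutant mouse held between 12.1% and 16.9% of the control mean, a narrower band than the 21.6% to 40.1% of Smarca4. The Smarca4 values are whole-gene counts and do not measure the extent of the deletion. Mutant replicate 1, which had 2.57% of the control mean of Ltf where the others had 35.6% to 62.8%, did not stand apart for Cebpb. Among the 10690 tested genes with at least 5 CPM on average, 76 had a lower fold change than Cebpb.

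Cebpd (ENSMUSG00000071637.5, chr16:15887286-15891031, plus strand) encodes C/EBP-delta, an early-response family member induced by cytokines. It had 60.7, 66.6, 46.0 and 112 CPM across mutant replicates 1 to 4 and 249, 262 and 338 CPM across control replicates 1 to 3. The groups did not overlap, and mutant replicate 4 was the highest of the mutants. The mean was 71.3 ± 28.5 CPM in mutants and 283 ± 48.0 CPM in controls (SD, n = 4 and 3), and the fitted level was 3.96-fold lower (log2 fold change −1.99 ± 0.31 SE). The mutants spread 2.44-fold from lowest to highest for Cebpd, against 1.39-fold for Cebpb.

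Cebpa (ENSMUSG00000034957.10, chr7:35119293-35121928, plus strand), the gene of C/EBP-alpha, had overlapping levels. It had 40.1, 15.6, 28.6 and 50.5 CPM across mutant replicates 1 to 4 and 41.0, 26.3 and 29.3 CPM across control replicates 1 to 3. Both the lowest and the highest value were mutants, so the mutants spread 3.24-fold and the controls 1.56-fold. The log2 fold change was 0.064 ± 0.39 SE, and it took either sign over the alternatives, from −0.26 with the replicate number as a block to 0.44 with scaling to total reads.

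Cebpg (ENSMUSG00000056216.9, chr7:35046422-35056573, minus strand) encodes C/EBP-gamma, a known partner of ATF4. It had 77.4, 71.3, 77.7 and 64.1 CPM across mutant replicates 1 to 4 and 96.0, 80.0 and 91.1 CPM across control replicates 1 to 3. The groups did not overlap, but the gap between them was small, and it was the steadiest member within either group. The log2 fold change was −0.29 ± 0.16 SE, and it was 0.054 with scaling to total reads.

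Cebpz (ENSMUSG00000024081.8, chr17:78919006-78937066, minus strand), the CCAAT box protein outside the bZIP class, had 56.0, 58.9, 68.8 and 46.2 CPM across mutant replicates 1 to 4 and 56.2, 72.7 and 56.2 CPM across control replicates 1 to 3. The ranges overlapped, with a log2 fold change of −0.10 ± 0.20 SE. It was 0.030 with upper-quartile and 0.24 with total read scaling. Of its 50-base words, 1.66% also occur in transcripts of other genes, against 0% for the other 4 members.

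**Figure D1:**
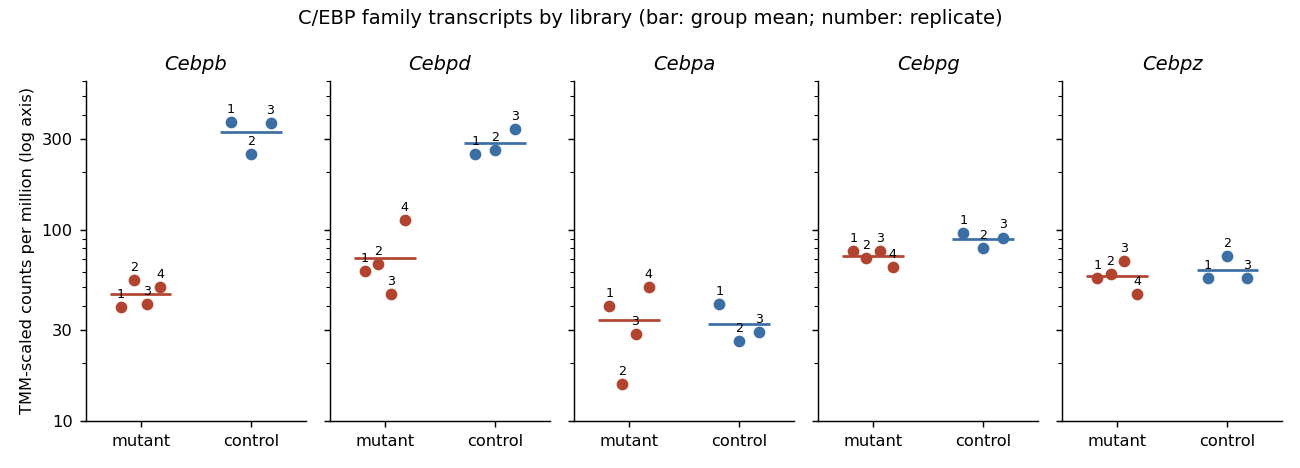
TMM-scaled counts per 1000000 (CPM) on a log axis for each of the 5 genes, with the 4 mutant libraries (red, numbered by replicate) left of the 3 control libraries (blue) and a bar at each group mean. Cebpb lies between 39.3 and 54.8 CPM in mutants and at 248 CPM or more in controls, and Cebpa and Cebpz overlap between groups.

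In this fit 2 of the 5 members, Cebpb and Cebpd, were called, both lower, where 6.18% of all tested genes were called lower, 5.37% higher and 11.5% in either direction. The ranges of 3 members did not overlap, Cebpg being the third, where 31.5% of tested genes did not overlap (16.1% with the mutants lower). Because the family was chosen on this contrast, nothing is read from these counts. As limits on these counts, Cebpd was not called without control replicate 1, 2 or 3, at log2 fold changes of −2.04, −1.99 and −1.81, and neither gene was called with the replicate number as a block, where 2 of all genes passed. The authors' deposited table gave log2 fold changes of −2.79 for Cebpb, −1.97 for Cebpd, 0.08 for Cebpa, −0.28 for Cebpg and −0.09 for Cebpz.

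**Figure D2:**
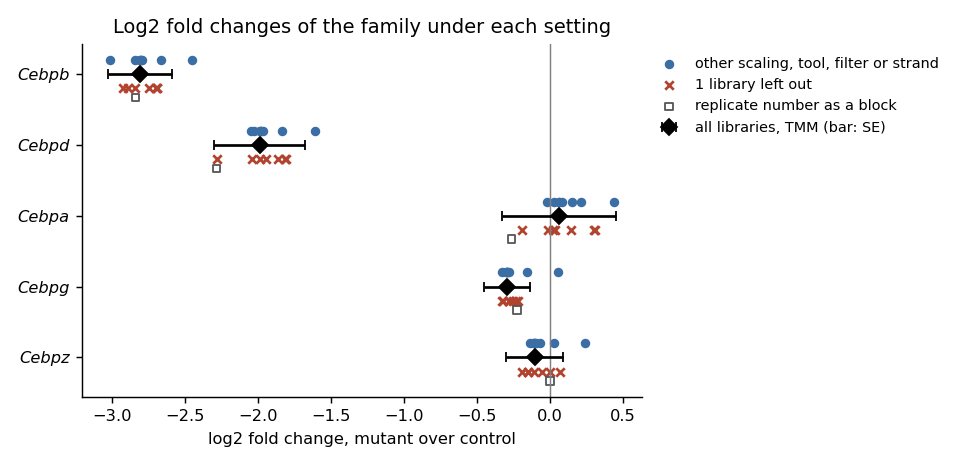
Log2 fold change of each gene, mutant over control: the fit to all libraries (black diamond with its SE), other scalings, tools, filters and strand (blue circles), fits without 1 library (red crosses) and the replicate number as a block (open squares). Cebpb ranges from −3.01 to −2.45 and Cebpd from −2.28 to −1.61, while the other 3 genes lie near 0 and change sign under at least 1 alternative.

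The make-up of the family, compared per length, is likewise given as a description. Levels are in reads per kilobase of annotated exon per 1000000 gene reads (RPKM), without TMM scaling. With scaling to total reads the median log2 fold change over all tested genes was 0.41, against 0.064 with TMM. Mutant levels therefore stand higher beside controls in RPKM than in CPM, while shares and ratios within a library are unaffected. Cebpb was the most abundant member in both groups, at 34.2 ± 6.47 RPKM in mutants and 187 ± 35.9 RPKM in controls (SD, n = 4 and 3). Cebpd came next at 21.5 ± 10.3 RPKM in mutants and 65.5 ± 9.83 RPKM in controls. In controls these 2 genes stood apart from each other and from the rest, whose means were 13.8 RPKM for Cebpg, 11.5 RPKM for Cebpz and 10.6 RPKM for Cebpa, with overlapping ranges. In mutants the other means were 14.4 RPKM for Cebpa, 14.3 RPKM for Cebpg and 13.6 RPKM for Cebpz, and the ranges of all neighbours in the order overlapped. Within every mutant library, however, Cebpb remained above Cebpd and Cebpd above Cebpa.

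Cebpb made up 35.1% ± 5.15 of the summed family level in mutants and 64.5% ± 4.26 in controls (SD, n = 4 and 3). The share of Cebpd was 21.2% ± 5.56 in mutants and 22.9% ± 3.58 in controls. The summed level was 85.7, 89.0, 89.8 and 127 RPKM in mutant replicates 1 to 4, against 309, 243 and 314 RPKM in control replicates 1 to 3. The ratio of Cebpb to Cebpg, which are possible dimer partners, was 1.90, 2.87, 1.96 and 2.93 in the mutants and 14.2, 11.6 and 14.8 in the controls. These levels use all annotated exons of a gene, so that a shorter transcript in these cells would have a higher true level.

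**Figure D3:**
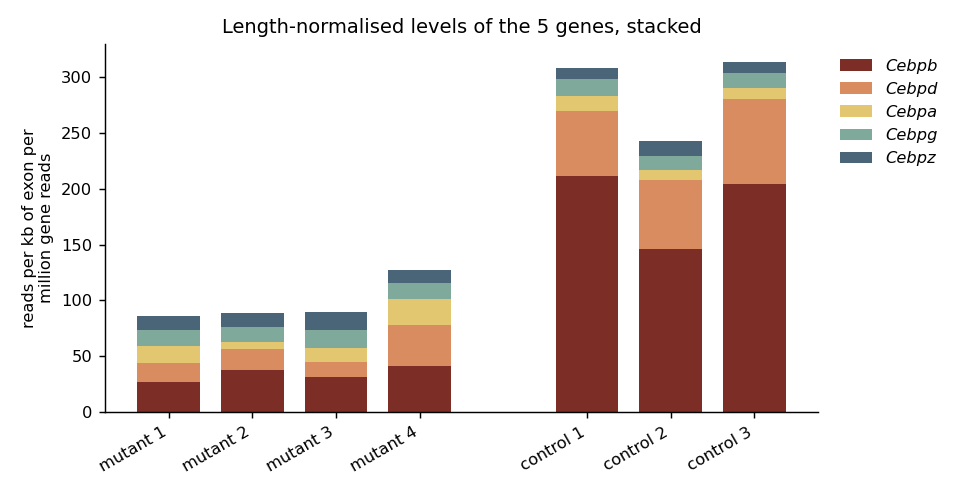
Stacked bars of reads per kilobase of exon per 1000000 gene reads, without TMM scaling, for the 5 genes in each library, mutants left and controls right. The summed level lies between 85.7 and 127 RPKM in mutants and between 243 and 314 RPKM in controls, and the Cebpb segment accounts for most of the height in controls.

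Cebpe, the granulocyte member of the family, was close to absent. It had 1, 3, 0 and 2 reads in mutant replicates 1 to 4 and 3, 2 and 5 reads in control replicates 1 to 3, and did not pass the filter.

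Neighbouring genes were examined because several members share their locus with other transcripts. Tmem189, a transmembrane desaturase gene, overlaps Cebpb on the opposite strand and shares 312 of its 1504 exonic bases. Of the stranded reads at Cebpb, 1.19% to 5.45% lay on the opposite strand, and the fold change of Cebpb was −3.01 when strand was ignored. Tmem189 fell in the mutants, to 37.3 ± 1.86 CPM against 57.2 ± 7.61 CPM in controls (log2 fold change −0.62 ± 0.16 SE, edgeR adjusted p = 0.0491). That call was lost with upper-quartile scaling (−0.48, edgeR adjusted p = 0.0836), total read scaling (−0.27, edgeR adjusted p = 0.306), unstranded counts (−0.43, edgeR adjusted p = 0.119) and no filter (−0.65, edgeR adjusted p = 0.131). Spata2, a regulator of TNF signalling 196.0 kb away, also fell (−0.87 ± 0.15 SE, edgeR adjusted p = 0.0162), but was not called with total read scaling (−0.51, edgeR adjusted p = 0.0622). The non-coding A530013C23Rik, which starts 2.26 kb past the Cebpb start, had a log2 fold change of −1.67 ± 0.49 SE, and Snai1, a repressor of E-cadherin, one of −1.86 ± 0.55 SE, neither passing the test (edgeR adjusted p = 0.0687 and 0.0674). Both lay under 5 CPM in every group mean. Of the 6 nearest tested genes around Cebpb, 2 passed (neither of them with total read scaling) and 4 did not, where 11.5% of all tested genes passed.

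Around Cebpd the 6 nearest genes ranged from −0.82 to 0.74, and Prkdc, the catalytic subunit of the DNA-dependent protein kinase, rose (0.74 ± 0.19 SE, edgeR adjusted p = 0.0487). Spidr, on the strand opposite Cebpd, shares 562 of the 3746 exonic bases of Cebpd. It did not pass (0.57 ± 0.27 SE, edgeR adjusted p = 0.189). Of the stranded reads at Cebpd, 2.84% to 13.3% lay on the opposite strand, and its log2 fold change was −1.98 when strand was ignored. Cebpa and Cebpg are themselves neighbours, with starts 62.7 kb apart. Rhpn2, among the 6 nearest tested genes of both, fell (−1.14 ± 0.27 SE, edgeR adjusted p = 0.0392). No other neighbour of Cebpa or Cebpg was called, and the call of Rhpn2 was not followed over the alternatives. At Cebpz, Ndufaf7, which encodes an assembly factor of respiratory complex I, starts 0.07 kb away on the opposite strand and rose to 15.2 ± 1.75 CPM in mutants, against 7.50 ± 0.72 CPM in controls (1.02 ± 0.22 SE, edgeR adjusted p = 0.0299). Eif2ak2, the double-stranded RNA kinase PKR, rose as well (1.16 ± 0.22 SE, edgeR adjusted p = 0.0215), as did the pseudogene Gm6548, whose reads are uncertain. Cebpzos, on the strand opposite Cebpz, shares 171 of its 4658 exonic bases and had a log2 fold change of 0.76 without passing (edgeR adjusted p = 0.062). Of the stranded reads at Cebpz, 3.91% to 15.7% lay on the opposite strand, and its log2 fold change was −0.067 when strand was ignored.

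**Figure D4:**
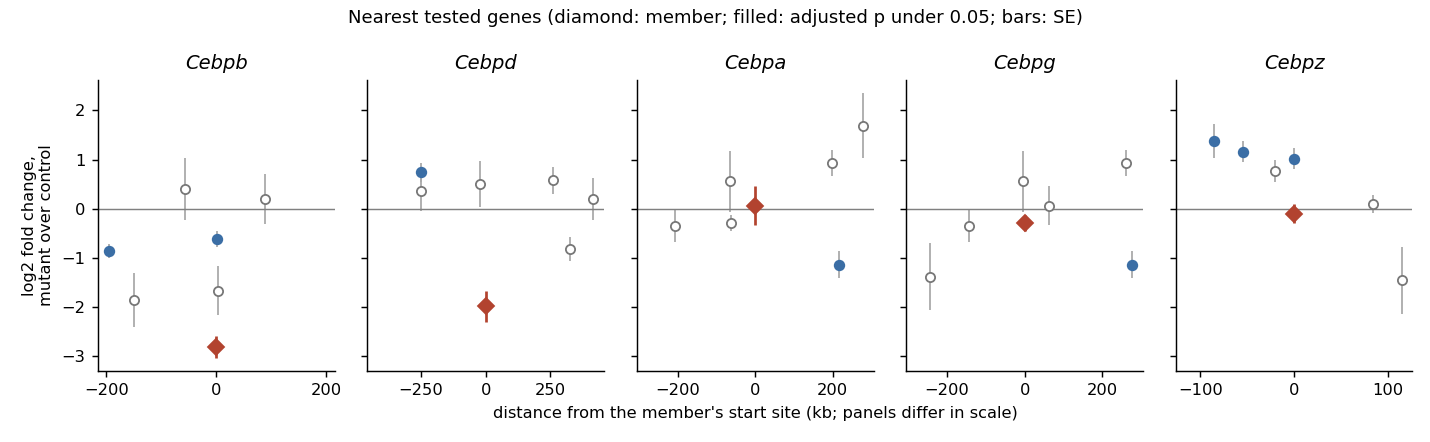
Log2 fold change (mutant over control, bars SE) of the 3 nearest tested genes on each side of each member against the distance between start sites in kilobases, with the member as a red diamond and genes at an edgeR adjusted p under 0.05 filled. Cebpb lies at −2.81, the fall for which the family was taken up, and Cebpd at −1.99. Cebpz lies below 3 neighbours that rose.

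The genes whose profile over the 7 libraries was most like that of Cebpb were found by the root mean square difference of log2 CPM profiles, each centred on its own mean, among 10689 other genes. They were Mmp19, a matrix metalloproteinase (0.228), Bcar1, the adaptor p130Cas (0.278), Egfr, the epidermal growth factor receptor (0.282), Sesn2, a stress-induced sestrin (0.289), and Zxdc, a zinc finger gene (0.317). Their means were 10.3 CPM for Mmp19, 121 for Bcar1, 40.4 for Egfr, 16.7 for Sesn2 and 17.7 for Zxdc in mutants, against 63.2, 676, 224, 113 and 93.5 CPM in controls. Cebpd ranked 44th among these genes, at a difference of 0.498, and the other 3 members differed from Cebpb by 1.26 or more. All profiles share the same 7 libraries and the same contrast.

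The other bZIP genes, which include possible partners of C/EBP proteins, moved in both directions. Of 25 genes, 22 were tested, 4 fell and 1 rose, or 22.7% against 11.5% of all tested genes, with a median log2 fold change of −0.43 against 0.064. This list and those below were chosen with earlier results of these data known, so their shares are given as a description. Atf4, the stress-response factor that pairs with C/EBP-gamma, had 378, 295, 273 and 302 CPM across mutant replicates 1 to 4 and 690, 718 and 727 CPM across control replicates 1 to 3. The groups lay well apart (−1.19 ± 0.18 SE, edgeR adjusted p = 0.0115). Its relative Atf5 fell to 19.3 ± 5.42 CPM in mutants, against 43.0 ± 2.31 CPM in controls (−1.15 ± 0.25 SE, edgeR adjusted p = 0.0307). The AP-1 genes Fosl1 (−1.40 ± 0.32 SE, edgeR adjusted p = 0.0349) and Junb (−1.02 ± 0.24 SE, edgeR adjusted p = 0.0366) fell, whereas Fosb rose (1.19 ± 0.31 SE, edgeR adjusted p = 0.0494). Ddit3 (CHOP), a C/EBP relative that blocks DNA binding by its partners, had 6.18, 20.5, 7.21 and 13.2 CPM in mutants against 24.4, 30.6 and 25.6 CPM in controls. It did not pass (−1.19 ± 0.42 SE, edgeR adjusted p = 0.106). Leaving out mutant replicate 1, 2, 3 or 4 gave 9, 4, 1 or 2 called, and leaving out any control gave 0. Total read scaling gave 3 called, 2 of them higher.

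The cofactors and regulators of C/EBP proteins held the largest change among these lists after that of the low-level target Fabp4. Eif4ebp1, the translation repressor 4E-BP1 through which mTOR signalling reaches the choice of C/EBP-beta start codon, had 7.43, 6.60, 9.80 and 6.28 CPM in mutants, against 68.5, 70.6 and 87.4 CPM in controls. The groups were far apart (−3.33 ± 0.22 SE, edgeR adjusted p = 0.00125), and the call held without any one library (edgeR adjusted p up to 0.0105). Of the 16 modulators tested, 3 fell and 1 rose (2 and 2 with total read scaling), or 25% against 11.5% of all tested genes, with a median of 0.13 against 0.064. The others were the ubiquitin ligase Siah2 (−1.19 ± 0.19 SE), the acetyltransferase and coactivator Crebbp (−0.80 ± 0.16 SE) and the deacetylase Hdac1, which rose (0.97 ± 0.25 SE), at edgeR adjusted p = 0.0136, 0.0243 and 0.0481. Leaving out mutant replicate 1, 2, 3 or 4 gave 8, 2, 2 or 2 called, and leaving out any control gave 1.

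Of 21 hormone, cytokine and kinase inputs to the family, 2 fell, or 9.52%, near the 11.5% of all tested genes, and 0 were called with upper-quartile or total read scaling. Both are cytokine receptor chains: Osmr, of the oncostatin M receptor, had 148, 109, 59.7 and 66.9 CPM in mutants and 227 CPM in each control (−1.24 ± 0.32 SE, edgeR adjusted p = 0.0488), and Il6ra, of the interleukin 6 receptor, had 66.1 ± 11.6 CPM in mutants and 108 ± 8.69 CPM in controls (−0.71 ± 0.19 SE, edgeR adjusted p = 0.0491). The oestrogen receptor Esr1, whose hormone induces Cebpb in the uterus, had 885, 455, 352 and 351 CPM in mutants against 465, 487 and 434 CPM in controls. Its ranges overlapped and it did not pass (0.14 ± 0.35 SE, edgeR adjusted p = 0.816), nor did Pgr (0.80), Stat3 (−0.56) or Il6 (0.45). The median of the list was −0.019. Leaving out mutant replicate 1 gave 7 called, 6 of them lower, and leaving out any of the other libraries gave 0. Without mutant replicate 1, Esr1 was at −0.22 and Stat3 passed at −0.74 (edgeR adjusted p = 0.0264). Pgr was at 0.26 without mutant replicate 4. Il6 was at 0.11 without mutant replicate 2 and 0.75 without mutant replicate 1.

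Of 32 textbook C/EBP target genes, chosen from liver, fat, myeloid cells and uterus, 23 were tested, 9 were too low and 7 fell. That was 30.4% against 11.5% of all tested genes, with a median of −1.27. As the list was chosen with earlier results of these data known, this share is only a description. By edgeR none rose, with 1 higher at an unadjusted p under 0.05 and 0 higher by DESeq2 and limma-voom, while total read scaling gave 1 higher and 4 lower. Trib3, a pseudokinase induced under stress, fell to 4.66 ± 1.60 CPM in mutants, against 27.0 ± 3.92 CPM in controls (−2.53 ± 0.31 SE, edgeR adjusted p = 0.00685). The chemokine Cxcl2 had 30.3, 158, 145 and 134 CPM in mutants and 679, 553 and 612 CPM in controls (−2.40 ± 0.50 SE, edgeR adjusted p = 0.0281). The cytokine Tnf (−1.98 ± 0.47 SE), the chemokine Ccl3 (−1.38 ± 0.27 SE) and the steroidogenic carrier Star (−1.27 ± 0.29 SE) fell at edgeR adjusted p = 0.0391, 0.0243 and 0.0356. The other 2, Fabp4 and Saa3, were at most 0.280 CPM in any mutant, near the floor of 3 reads. The abundant secretory targets spread too widely to read: Lcn2 lay at 53.7, 10256, 2914 and 551 CPM in mutants against 3437, 2467 and 4007 CPM in controls, and C3 at 373, 12307, 2266 and 1018 CPM against 11391, 7757 and 14488 CPM. Neither passed, and mutant replicate 1 was lowest and replicate 2 highest for both. Without mutant replicate 1, 2, 3 or 4 there were 13, 5, 3 or 5 called, and leaving out any control gave 2.

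**Figure D5:**
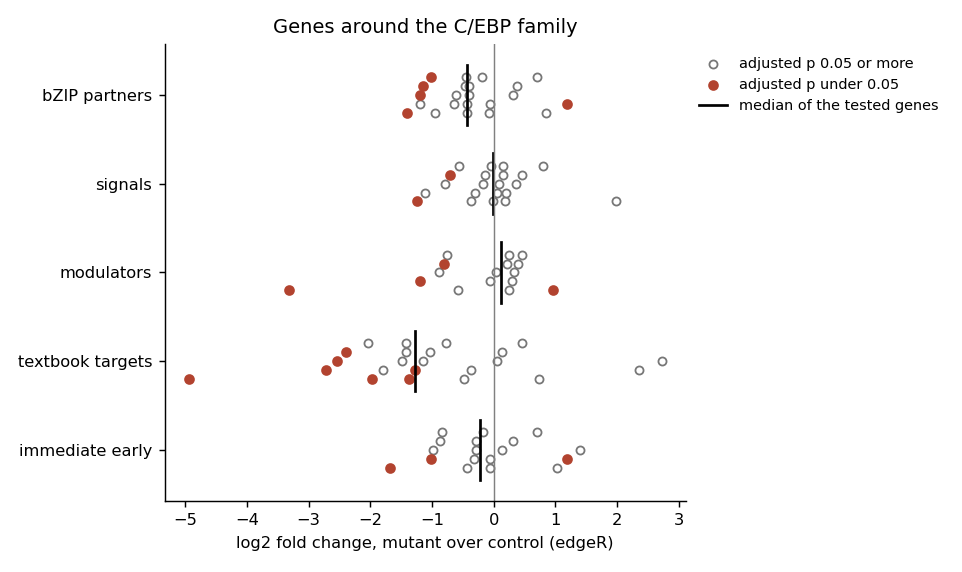
Log2 fold change (mutant over control, edgeR) of every tested gene in 5 lists around the family, filled where the adjusted p was under 0.05, with a black line at each list's median. The median of the textbook targets is −1.27 and that of the signals −0.019, and the point at −3.33 among the modulators is Eif4ebp1. The lists were chosen with earlier results of these data known.

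Cebpb and Cebpd are also known as genes that tissue dissociation induces, so other early-response genes were read beside them. Of 18 such genes, 2 fell, Ier3 (−1.69 ± 0.42 SE, edgeR adjusted p = 0.0421) and Junb, and 1 rose, Fosb, or 16.7% against 11.5% of all tested genes, with a median of −0.23 against 0.064, whereas total read scaling gave 1 lower and 3 higher. Fos had a log2 fold change of 0.31 and Jun one of −0.44, without passing, and Fos was at −0.064 without mutant replicate 2. The list lay, summed, between 10298 and 16763 CPM in mutants and between 13792 and 14788 CPM in controls, so the ranges overlapped. The list shares Atf3, Fos, Fosb, Jun and Junb with the bZIP list. Leaving out mutant replicate 1, 2, 3 or 4 gave 7, 5, 1 or 0 called, and leaving out any control gave 0. Dissociation was not recorded per library, and its part in the levels of Cebpb and Cebpd was not tested.

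Markers of other cells that express C/EBP genes were read beside the family. Of 12 myeloid markers, 8 were tested and none was called by edgeR, DESeq2 or limma-voom, or at an unadjusted p under 0.05. Their summed level was between 767 and 3417 CPM in mutants and between 1464 and 1838 CPM in controls, the mutant range spanning that of the controls. Cd14 was the largest part of that sum in every library. It had 300, 2905, 1423 and 734 CPM across mutant replicates 1 to 4 and 1351, 1081 and 1420 CPM across control replicates 1 to 3. The sum therefore mainly follows this gene. Camp, Elane, Mpo and Ngp were too low to test. The 8 stromal markers lay, summed, between 163 and 471 CPM in mutants and between 538 and 689 CPM in controls, and 1 of them fell, decorin (Dcn, −1.77 ± 0.24 SE, edgeR adjusted p = 0.00888). The 8 endothelial and muscle markers lay, summed, between 11.4 and 65.2 CPM in mutants and between 71.2 and 111 CPM in controls. None of these 8 was called by edgeR, DESeq2 or limma-voom, and 2 were lower at an unadjusted p under 0.05. Acta2 was the largest part of their sum in every library. It had 27.77, 2.915, 5.533 and 20.30 CPM across mutant replicates 1 to 4 and 68.95, 36.45 and 40.42 CPM across control replicates 1 to 3 (−1.78 ± 0.72 SE, edgeR adjusted p = 0.143). The sum therefore mainly follows this gene. The 6 epithelial markers lay, summed, between 5400 and 10470 CPM in mutants and between 13581 and 15524 CPM in controls. Of these, Cdh1 (−0.91 ± 0.20 SE) and Krt8 (−1.02 ± 0.25 SE; uncertain, as keratin genes are similar in sequence) fell at edgeR adjusted p = 0.0307 and 0.0421, and with total read scaling 0 epithelial markers were called. Leaving out mutant replicate 1 gave 3 epithelial and 4 endothelial and muscle markers called, leaving out mutant replicate 2 gave 1 myeloid marker, and leaving out mutant replicate 3 gave 3 stromal markers. Leaving out control replicate 1 or 2 gave 0 stromal markers, and leaving out any library but mutant replicate 1 gave 0 epithelial markers. In TMM-scaled CPM the summed epithelial, stromal, and endothelial and muscle levels thus lay lower in mutants, as did Cebpb and Cebpd. The TMM factors, 1.03 to 1.23 in mutants and 0.852 to 0.886 in controls, lower the mutants beside the controls. Without these factors the stromal ranges overlap between the groups, as do the endothelial and muscle ranges, while the epithelial ranges stay apart. The part of these cells in the lower levels of Cebpb and Cebpd was not tested.

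The transcripts of Cebpb and Cebpa are rich in G and C, at 67.2% and 62.6% against a median of 49.6% over tested genes. The 42 tested genes within 2 points of Cebpb had a median log2 fold change of −0.53, and the 367 near Cebpa one of −0.29, against 0.064 for all genes. Each such set, also that of Cebpd below, includes the member itself. Of these 42 genes 19% were called, Cebpb itself among them, against 11.5% of all tested genes. The family was taken up for the fall of Cebpb, so its place at −2.81, below the median of these genes, was set in advance. The part of base composition in its level was not tested. Cebpd, at 51.6%, lay among 3096 genes with a median of −0.0041.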

How the data were processed

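For each library the authors deposited STAR gene counts, raw whole-number read counts with 1 unstranded column and 2 stranded columns. The submitters' processing notes list cutadapt, Trim Galore, FastQC, STAR, DESeq2 and the build mm10, with neither versions nor order. The authors' deposited table holds log2 fold changes, standard errors, p-values, a mean normalized signal and a test score per gene, of which only the log2 fold changes are printed. The libraries are directional, per the labels' protocols, and column 4, the reverse strand, held 94.8% to 95.6% of stranded gene reads and was used. Unmapped, multimapping, gene-less and ambiguous reads, at most 6.70%, 11.2%, 14.7% and 1.29% of a library, stayed out.

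Counts were filtered with filterByExpr and fitted in R 4.3.3 with edgeR 4.0.16 (TMM, quasi-likelihood F test, genotype as the only term, two-sided, Benjamini-Hochberg adjustment over 14610 genes, threshold 0.05). The fit was also run on counts simulated from its own model, which does not show how well that model suits these libraries. Symbols, exon lengths and positions come from GENCODE M21 (GRCm38), matched for 53274 of 53379 gene IDs, and promoters from RefSeq (GRCm38.p6). The likeness measure used log2(CPM + 0.5) and genes of at least 5 CPM on average. Named genes were the members and 9 fixed genes. Per list they were up to 6 called genes averaging 1 CPM or more, else the most abundant gene. The 3 nearest tested genes on each side were all plotted, and some of them are named. Fabp4 and Saa3, and further genes given for contrast, were named after their values were seen. The members and lists were chosen with earlier results of these data known. Mutants are separate mice and controls are pools, which sets the spread that p-values measure, and all pairs of libraries differed by more than sampling noise (chi-square per degree of freedom of at least 54.9). Alternatives were other scalings, DESeq2 1.42.0, limma-voom (limma 3.58.1), 2 other filters, unstranded counts, leaving out each library and a replicate block.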

Additional observations from a re-analysis of the deposited data

How the results depend on the processing

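Cebpb and Cebpd kept their direction under all 16 alternatives. Cebpb was at −2.45 with total read scaling, Cebpg at −0.16 with upper-quartile and 0.054 with total read scaling, and Cebpz at 0.24 with total read scaling, where the median over all genes was 0.41 (0.20 with upper-quartile scaling and 0.064 with TMM). Genes called numbered 2734 with total read scaling (80.5% higher, against 46.5% with TMM and 62.6% with upper quartile), 3423 with DESeq2, 1057 without a filter and 2 with the replicate block. Leaving out 1 library gave log2 fold changes of −2.92 to −2.69 for Cebpb, −2.28 to −1.81 for Cebpd, −0.19 to 0.31 for Cebpa, −0.32 to −0.22 for Cebpg and −0.19 to 0.072 for Cebpz, and 133 to 4403 genes called.

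Called bZIP genes numbered 3 with total read scaling and without a filter, and 9 with DESeq2, signals 0 with upper-quartile, total read scaling and unstranded counts and 1 with either other filter, modulators 2 without a filter, and targets 4 at a mean of at least 5 CPM. Immediate early genes numbered 7 with DESeq2 and 1 without a filter, epithelial markers 1 with upper-quartile scaling and 0 with total read scaling and without a filter, stromal markers 3 with DESeq2 and 2 with limma-voom, and endothelial and muscle markers 1 with unstranded counts. Without 1 library the called ranged from 0 to 9 bZIP genes, 0 to 7 signals, 1 to 8 modulators, 2 to 13 targets, 0 to 7 immediate early genes, 0 to 3 epithelial, 0 to 1 myeloid, 0 to 3 stromal and 0 to 4 endothelial and muscle markers. Cd14, the most abundant myeloid marker, at 0.062, reversed to −0.38 with limma-voom and −0.20 with the block. Without 1 library it ranged from −0.64 to 0.43, and was at −0.0084 without control replicate 2, Esr1 ranged from −0.22 to 0.30 and Fos from −0.064 to 0.52. Of the 29 named calls beside the members and Rhpn2, 12 were lost without a filter and 29 with the block. The cause was not tested.

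Replicate numbers 1 to 3 occur in both groups but do not pair a mouse with a pool, and same-numbered libraries had deviations correlated at −0.016, −0.39 and 0.20. With the number as a block, on 6 libraries, no list gene was called (0 in each list) and Cebpb was at −2.84. Fewer samples enter that fit. A member that was not called can still differ, since 4 against 3 libraries limit what the test can find.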
